A study of Mus musculus with 6 samples.

Results

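The hedgehog pathway genes examined here were 9 genes chosen by symbol: the ligand Shh, the membrane proteins Ptch1, Boc, Hhip and Smo, the cytoplasmic inhibitor Sufu, and the transcription factors Gli1, Gli2 and Gli3. All 9 were found among the 25899 gene symbols of the deposited table, and all 9 passed the filter on low values that left 14444 genes for testing. RNA came from the apical part of the mandibular first molar of mice at postnatal day 7.5, on a mixed C57Bl6/129S6/SvEvTac background. The 3 mutant libraries were from Gli1-CreER;Bmpr1afl/fl mice and the 3 control libraries from Bmpr1afl/fl littermates, so both groups carried the loxP-flanked Bmpr1a alleles and the mutants alone carried the driver. Controls 1 and 2 and mutants 1 and 2 belonged to litter 1, and control 3 and mutant 3 to litter 2. The floxed gene, Bmpr1a, codes for a receptor of bone morphogenetic proteins. CreER, the driver, is a tamoxifen-dependent recombinase made in cells that transcribe Gli1. The labels give neither the tamoxifen schedule nor the number of animals behind a library, so p-values measure the spread between libraries.

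Hedgehog ligands bind Patched receptors, which otherwise hold Smoothened, the product of Smo, inactive. Active Smoothened releases the Gli proteins from Sufu, and Gli1, Ptch1 and Hhip are themselves transcribed in response, so their RNA serves as a readout of signalling. In teeth, Shh is made by the dental epithelium and is received by the mesenchyme beneath it, where Gli1 marks cells that give rise to pulp and periodontal tissue during root growth.

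The promoters of Hhip and Ptch1 are shown because these established response genes gave different values here. Each is the 250 bases before the RefSeq start on GRCm38.p6, read on the gene's own strand, the minus strand for both. The Hhip window is chr8:80058009-80058258 and the Ptch1 window chr13:63565736-63565985. They are unlike in place: the Hhip start is 2 bases outside the 5′ end of the GENCODE M21 gene, whereas the Ptch1 start lies 7863 bases inside its gene, at the first base of 1 coding transcript. Neither window overlaps an annotated exon of its gene. Capitals mark the letters CCACCC or GGGTGG, the 6 inner letters of the Gli motif GACCACCCA on either strand.
Hhip: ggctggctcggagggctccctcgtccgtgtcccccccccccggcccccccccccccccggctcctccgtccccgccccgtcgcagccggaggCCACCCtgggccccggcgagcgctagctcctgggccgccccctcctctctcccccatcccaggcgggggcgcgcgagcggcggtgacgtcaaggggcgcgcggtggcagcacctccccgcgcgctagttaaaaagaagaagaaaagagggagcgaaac
Ptch1: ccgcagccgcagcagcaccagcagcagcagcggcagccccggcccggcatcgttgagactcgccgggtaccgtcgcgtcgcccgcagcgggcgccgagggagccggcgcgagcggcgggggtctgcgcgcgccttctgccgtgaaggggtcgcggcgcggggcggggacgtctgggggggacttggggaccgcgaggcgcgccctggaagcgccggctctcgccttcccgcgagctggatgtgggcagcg
The whole motif, searched as GACCACCCA and TGGGTGGTC, was in none of the 6 member windows that the table holds (Gli2, Gli3, Hhip, Ptch1, Smo and Sufu), against 0.225% of the 32851 windows of this length over all genes. With 1 letter different it was again in none of the 6, against 5.79% of all windows. The inner letters were in 4 of the 6, those of Gli2, Gli3, Hhip and Smo, and in 28.1% of all windows. They begin 158 bases before the start in Hhip. The inner letters overlap the whole motif by construction, and a match is a description of these letters alone. Gli1, Shh and Boc had no window.

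Gli1, Hhip and Gli3 had lower levels in mutants than in controls, with log2 changes of -0.70, -0.82 and -0.44, while the fitted changes of Ptch1, Smo and Sufu were within 0.05 of 0. Boc (0.25) and Shh (0.79) were higher. None passed adjustment: over all 14444 genes 0 (0.0%) had an adjusted p under 0.05 by limma with Benjamini-Hochberg adjustment, and the adjusted p of each of the 9 was 1.00. At an unadjusted p under 0.05, 1 of the 9 stood out, against 1.05% of all tested genes; it was lower in mutants, as were 0.692% of all genes, while 0 of the 9 and 0.36% of all genes were higher. The groups did not overlap for 1 of the 9, Gli1, against 2.64% of all tested genes, 1.67% lower and 0.976% higher in mutants. The median change of the 9 was -0.04, against -0.01 over all tested genes. Every change is given as the mutant value minus that of controls in log2(RPM + 1), where RPM is reads per 1000000 mapped reads and the 1 added understates changes of low genes. The plot of levels by library shows the 6 values of each gene.

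**Figure D1:**
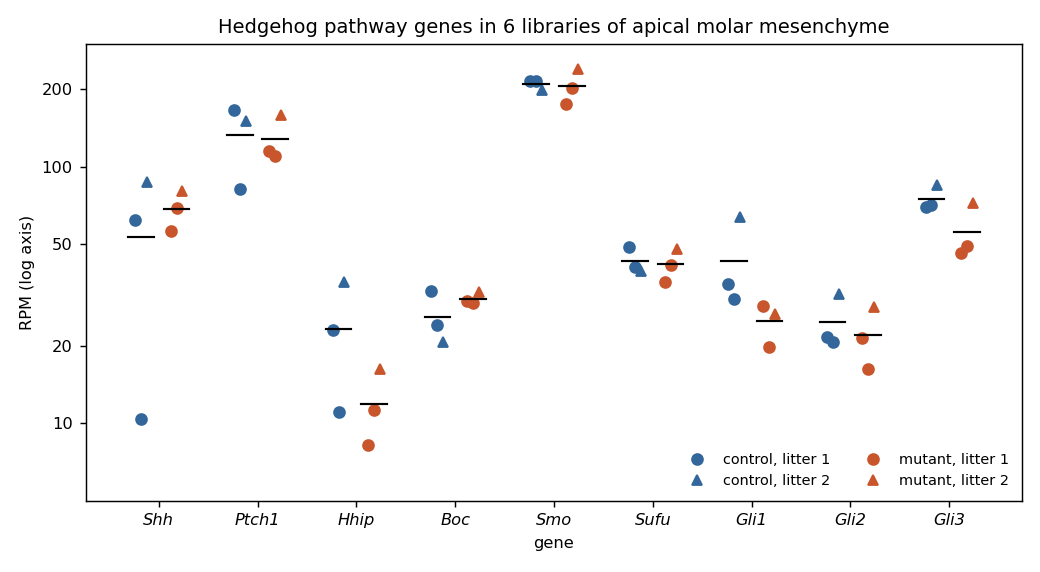
Level of each gene in RPM (log axis) in 3 control and 3 mutant libraries; circles are litter 1, triangles litter 2, and black lines group means. The Gli1 groups do not overlap, and control 2 is far below the other libraries for Shh, at 10.4 RPM.

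The samples were checked against cell type markers before the members were read. Of 12 dental epithelium markers, 12 were detected in every library, with a summed level of 2289 to 39883 RPM in controls and 5673 to 49735 RPM in mutants. The mesenchyme marker Col1a1, the main collagen of dentin and bone, was at 4871 to 28920 RPM, and all 10 mesenchyme markers were detected. Of these, 8 were lower in mutants, with a median change of -0.21, 1 without overlap and 0 at an unadjusted p under 0.05 (limma). As shares of all tested genes, 1.05% had an unadjusted p under 0.05 (0.692% lower in mutants) and 1.67% were lower without overlap. Of the 10, 4 had their lowest level in mutant 3 (Col1a1, Col1a2, Vim and Dspp), 3 in mutant 1, 2 in control 3 and 1 in control 1. The sum of the 10, most of which is collagen RNA and Dspp, a dentin matrix gene, was 10245 RPM in mutant 3 against 25285 to 51961 RPM elsewhere, while the mesenchymal factor Prrx1 was at 61.0 RPM in mutant 3, inside the range of 32.6 to 64.2 RPM of the others. Of the epithelium markers, 11 of 12 were higher in mutants, with a median change of 1.19 and 0 at an unadjusted p under 0.05 (limma). Of 6 osteoblast markers, 6 were lower in mutants, with a median of -0.48 and 2 at an unadjusted p under 0.05 (0.692% of all tested genes were lower at that p), and their summed level was 923 to 1659 RPM in controls and 501 to 1521 RPM in mutants. Of 5 glia markers, 3 were lower, 2 of them at an unadjusted p under 0.05 (again against 0.692% of all tested genes), with sums of 20.6 to 23.5 RPM and 17.3 to 22.0 RPM. The part of mesenchyme, osteoblasts and glia in the lower values of Gli1, Hhip, Gli3 and Gli target genes given below was not tested. With the mean of the epithelium markers as a covariate, the changes of Gli1, Hhip and Gli3 were -0.97, -1.10 and -0.51, those of Gli2 and Ptch1 -0.36 and -0.20, and those of Shh and Boc 0.26 and 0.28. Smo and Sufu were at -0.0074 and -0.015. Of 5 skeletal muscle markers, the highest was Acta1 at 0.712 RPM in mutant 3, followed by Myh8 at 0.426 RPM in mutant 1, and the muscle factor Myod1 was at 0 in 6 of 6 libraries. In bulk tissue, fewer cells of a type and less RNA per cell cannot be told apart. Libraries held 15916045 to 20609420 reads on genes, and a level of 3 reads, taken as the limit of detection, was 0.0987 to 0.126 RPM; these limits cover counting error only.

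Among the ligands, the level of Shh was 62.1, 10.4 and 86.8 RPM in control libraries 1, 2 and 3. In mutant libraries 1, 2 and 3 it was 56.2, 69.0 and 80.5 RPM; values below follow the same order. Control 2 alone was low, and the mutants lay inside the range of the controls. The change of 0.79 (SE 0.70; limma, unadjusted p 0.295, 95% interval -0.85 to 2.43) went to -0.11 without control 2 and to 0.26 with the epithelium covariate. It was 1.24 within litter 1, which holds control 2, and -0.11 within litter 2. Of the 12 epithelium markers, 10 were also lowest in control 2, while Amtn was lowest in mutant 2 and Klk4 in mutant 3. The epithelial keratin Krt5 was at 95.4 RPM in control 2 against 529.9 to 2076 RPM elsewhere, and the adhesion gene Cdh1 at 15.5 RPM against 61.9 to 221 RPM. Over the 6 libraries Shh and the mean of the 12 epithelium markers had a Pearson r of 0.76 (exact permutation p 0.0583, 0.119 adjusted over 4 relations) and a Spearman rho of 0.37 (exact permutation p 0.497). Without controls 2 and 3, the libraries farthest from the median of Shh, r was -0.15 over 4 libraries, so the relation rests on those. Within litter 1 r was 0.67 over 4 libraries, and litter 2 has too few. It was 0.92 over the 3 controls and -0.33 over the 3 mutants.

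Of 8 other genes of ligand production and release, 6 were tested, and 0 had an unadjusted p under 0.05. All 6 had negative fitted changes, with a median of -0.10. The largest were those of Scube1 (-0.29, from 83.2 ± 33.1 to 65.8 ± 17.4 RPM, means ± SD of 3 libraries per group, as in what follows) and Scube3 (-0.18), which encode secreted proteins; Scube proteins help release the ligand. Of the 6, only Scube3 was negative within both litters, at -0.13 in litter 1 and -0.29 in litter 2. Scube1 was at -0.70 within litter 1 and 0.52 within litter 2. The related ligand gene Ihh was at or below 3 reads in every library, from 0 to 0.0998 RPM. Dhh, named after its values were seen, averaged 1.96 ± 0.336 RPM in controls against 1.98 ± 1.11 RPM in mutants. Shh was thus the only one of the 3 mammalian hedgehog ligands above 10 RPM in each of the 6 libraries.

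Ptch1 encodes the receptor that binds the ligand and is induced by the signal. It was at 166, 81.8 and 150.3 RPM in controls and at 115, 110.4 and 158 RPM in mutants. Control 2 was the lowest and control 1 the highest of the 6, with the mutants between them. The change was -0.0050 (SE 0.29; limma, unadjusted p 0.987), and it was positive under 3 other scalings, at 0.0024 to 0.021. Its 95% interval ran from -0.68 to 0.67, and differences inside it were not detectable with 3 libraries per group.

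Hhip encodes a membrane protein that binds hedgehog ligands and so limits the signal, and it too is induced by it. It was at 23.1, 11.1 and 35.6 RPM in controls and at 8.21, 11.2 and 16.3 RPM in mutants. Controls 1 and 3 were above all mutants, and control 2 lay among them. The change was -0.82 (SE 0.42; limma, unadjusted p 0.0924), at -0.68 within litter 1 and -1.09 within litter 2. With litter as a block the unadjusted p was 0.0258 by limma, where 2.02% of all genes were under 0.05. The value depended on single controls: it was -1.25 without control 2 (limma, unadjusted p 0.00532) and -0.45 without control 3 (0.275). Boc encodes a coreceptor that helps cells bind the ligand. It was at 32.8, 24.1 and 20.8 RPM in controls and at 30.0, 29.3 and 32.4 RPM in mutants, and control 1 exceeded all mutants. Its change was 0.25 (SE 0.18; limma, unadjusted p 0.212), at 0.07 within litter 1 and 0.61 within litter 2. The Boc change was 0.43 without control 1 (limma, unadjusted p 0.043) and 0.11 without control 3 (0.538).

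The list of other receptor and co-receptor genes reported here had 6 genes, of which 5 were tested and 0 had an unadjusted p under 0.05. Of the 5, 4 were lower and 1 higher in mutants, with a median of -0.22. The largest changes were those of Gpc3, a cell surface proteoglycan that competes for the ligand (-0.42, 455.8 ± 249 to 332 ± 164 RPM), and Gas1, a coreceptor (-0.30, 153 ± 30.1 to 123 ± 16.3 RPM). Evc2, a ciliary partner of Smoothened named after its values were seen, was the only one of the 5 whose groups did not overlap, at 55.1 to 58.5 RPM in controls and 41.9 to 54.2 RPM in mutants; among all tested genes 1.67% were lower without overlap.

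Smo, which passes the signal across the membrane, was at 216, 214 and 199 RPM in controls and at 175, 202 and 241 RPM in mutants. The controls lay close together, and the mutants spread to both sides of them. In litter 1 both mutants were below both controls, and in litter 2 the mutant was above its control; the litters went opposite ways in this sense for 18.2% of all tested genes. The change was -0.04 (SE 0.16; limma, unadjusted p 0.819, 95% interval -0.42 to 0.34) and 0.02 under quantile scaling. Sufu, which holds Gli proteins inactive, was at 48.5, 40.8 and 39.1 RPM in controls and at 35.7, 41.4 and 47.9 RPM in mutants. The groups overlapped, and the change was -0.04 (SE 0.16; limma, unadjusted p 0.801). Of 17 genes for Gli processing and inhibition, 17 were tested, and 0 had an unadjusted p under 0.05. Their changes were between -0.11 for Kif7, a ciliary kinesin that controls Gli proteins, and 0.17 for Arrb2, with a median of -0.03. Of 25 genes of the primary cilium, the organelle in which vertebrate cells pass on this signal, 25 were tested and 0 had an unadjusted p under 0.05. The cilium changes were between -0.13 and 0.18, with a median of -0.05; the largest were those of Rpgrip1l (0.18) and Bbs4 (0.14).

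Gli1, the locus of the driver and an activator that is itself induced by the signal, was at 34.9, 30.4 and 63.7 RPM in controls and at 28.7, 19.8 and 26.6 RPM in mutants. All mutants were below all controls, and control 3 stood well above the rest. The change was -0.70 (SE 0.29; limma, unadjusted p 0.046, adjusted p 1.00, 95% interval -1.38 to -0.02), with the mutant mean at 0.582 of the control mean. An exact permutation test of Gli1 alone gave p = 0.1, the smallest that 3 against 3 allows. Litter 1 alone gave -0.43 and litter 2 alone -1.23. With litter as a block the unadjusted p was 0.0176 by limma. It was 0.0757 to 0.0907 by limma under 3 other scalings. Without control 3 the change was -0.38 (limma, unadjusted p 0.0988). Control 3 also held the highest summed blood markers, 2521 RPM against 229.98 to 773 RPM elsewhere. It was highest too for the osteoblast markers Ibsp, Spp1, Runx2 and Alpl, with Ibsp at 153.9 RPM against 23.6 to 65.9 RPM elsewhere. Bglap was highest in mutant 1 and Sp7 in control 2. The part of blood and bone tissue in the Gli1 value was not tested. The driver is made from the Gli1 locus in mutants only, so a change in signalling and an effect of the driver allele on Gli1 RNA cannot be told apart.

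Gli3, mainly a repressor in the absence of ligand, was at 69.3, 71.0 and 84.4 RPM in controls and at 46.1, 48.9 and 72.0 RPM in mutants. In litter 1 both mutants were below both controls, and in litter 2 the mutant was below its control. Mutant 3 was above both litter 1 controls. The change was -0.44 (SE 0.20; limma, unadjusted p 0.0561), or -0.55 within litter 1 and -0.23 within litter 2. With litter as a block the unadjusted p was 0.00892 by limma, the lowest of the 9 genes, with an adjusted p of 1.00. Leaving out 1 library moved it both ways: it was -0.64 without mutant 3 (limma, unadjusted p 0.0054), and -0.33, -0.37 and -0.36 without mutant 1, mutant 2 and control 3 (0.165, 0.16 and 0.143). Gli2, the main activator downstream of Smoothened, was at 21.8, 20.8 and 31.8 RPM in controls and at 21.6, 16.3 and 28.3 RPM in mutants. Both groups had their highest value in litter 2, and the change of -0.17 (SE 0.25; limma, unadjusted p 0.513) turned to 0.02 without control 3 or without mutant 2. With litter as a block 3 of the 9 genes, Gli1, Gli3 and Hhip, had an unadjusted p under 0.05 by limma, against 2.02% of all tested genes. With the epithelium covariate it was again 3 of the 9, against 3.46% of all tested genes. Gli1 and Gli3 were the 2 of the 9 for which each mutant was below each control of its own litter, as were 5.35% of all tested genes. A term for a different genotype effect in the litters had an unadjusted p under 0.05 for 0 of the 9 by limma, against 5.06% of all tested genes.

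**Figure D2:**
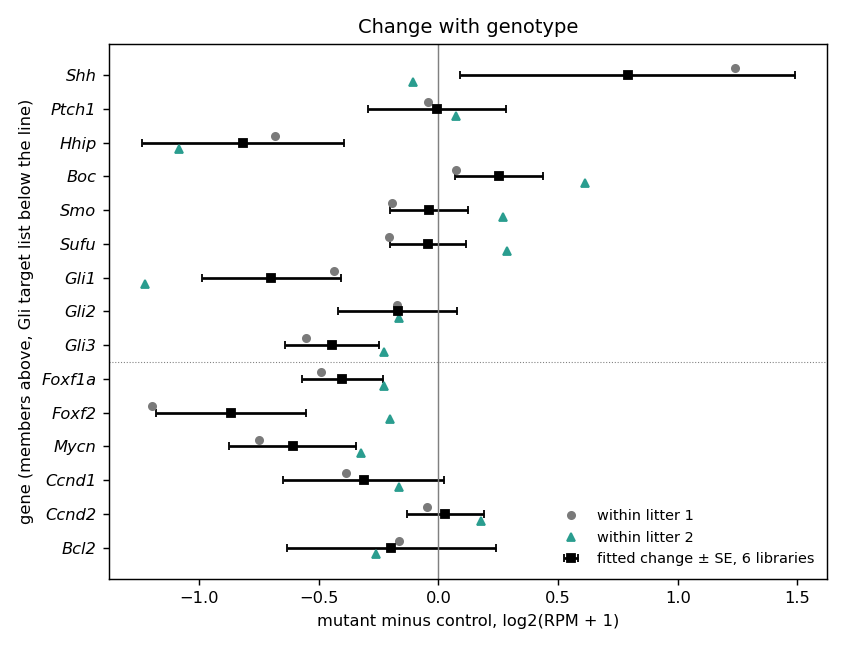
Fitted change, mutant minus control in log2(RPM + 1), with its SE over 6 libraries (squares), and the change within litter 1 (circles) and litter 2 (triangles), for the 9 members above the dotted line and 6 tested genes of the Gli target list below it. Gli1, Gli2, Gli3 and Hhip are below 0 in both litters, as are Foxf1a, Foxf2, Mycn, Ccnd1 and Bcl2, while Shh, Ptch1, Smo, Sufu and Ccnd2 lie on opposite sides of 0 in the litters.

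Genes known as Gli targets in other tissues were read next. Of 8 genes, 7 were found in the table and 6 were tested; 2 had an unadjusted p under 0.05, both lower in mutants, against 1.05% of all tested genes, 0.692% lower. Changes were negative for 5 of the 6, with a median of -0.36, and for 7859 of all 14444 genes. Foxf2, a forkhead factor of facial mesenchyme, was at 73.2, 62.3 and 75.6 RPM in controls and at 29.2, 28.6 and 65.5 RPM in mutants. The litter 1 mutants were below all controls by a wide margin, and mutant 3 lay among the controls. Its change was -0.87 (SE 0.31; limma, unadjusted p 0.0274), at -1.20 within litter 1 and -0.20 within litter 2. Foxf1a, its close relative, was at 62.2, 70.6 and 53.2 RPM in controls and at 40.1, 54.8 and 45.4 RPM in mutants, a change of -0.40 (SE 0.17; limma, unadjusted p 0.0481). Mutant 2 was above control 3, so these groups overlapped. Mycn, a growth-promoting transcription factor, had a change of -0.61 (SE 0.27; limma, unadjusted p 0.0548), with mutants at 9.70, 14.3 and 20.5 RPM against 19.7 to 25.9 RPM in controls. With litter as a block its unadjusted p was 0.0153 by limma, so that 3 of the 6, Foxf2 (0.00615), Foxf1a (0.0395) and Mycn, were under 0.05, against 2.02% of all tested genes. The cyclin genes Ccnd1 (-0.31) and Ccnd2 (0.03) and the survival gene Bcl2 (-0.20) had overlapping groups. Adjusted p-values were 1.00 by limma for all 6. Over the 5 lists together, 59 genes were tested, of which 46 had negative and 13 positive changes, against 7859 and 6585 of all tested genes. The median change of the 59 was small, at -0.05, against -0.01 over all tested genes. Within litter 2 most of the cilium and Gli processing genes had positive changes.

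How far the induced genes varied together was examined over the 6 libraries, which share the genotype difference and the litters. Gli1 and Hhip had a Pearson r of 0.80 (exact permutation p 0.0597, 0.119 adjusted over 4 relations) and a Spearman rho of 0.54 (exact permutation p 0.297). Without control 3 and mutant 2 r was 0.51 over 4 libraries, and within litter 1 it was 0.48. Over the 3 libraries of a genotype it was 0.88 in controls and -0.14 in mutants. Ptch1 and Hhip had r = 0.69 (exact permutation p 0.132, adjusted 0.176) and rho = 0.66 (exact permutation p 0.175); r was 0.75 without controls 1 and 2 and 0.71 within litter 1. Gli1 and Ptch1 had r = 0.38 (exact permutation p 0.467, adjusted 0.467) and rho = 0.31 (exact permutation p 0.564); r was 0.11 without control 3 and mutant 2 and 0.32 within litter 1. Over the 3 libraries of a genotype the r of Ptch1 with Hhip was 0.87 in controls and 0.83 in mutants, and that of Gli1 with Ptch1 0.54 and 0.43. None of the 4 relations passed adjustment.

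**Figure D3:**
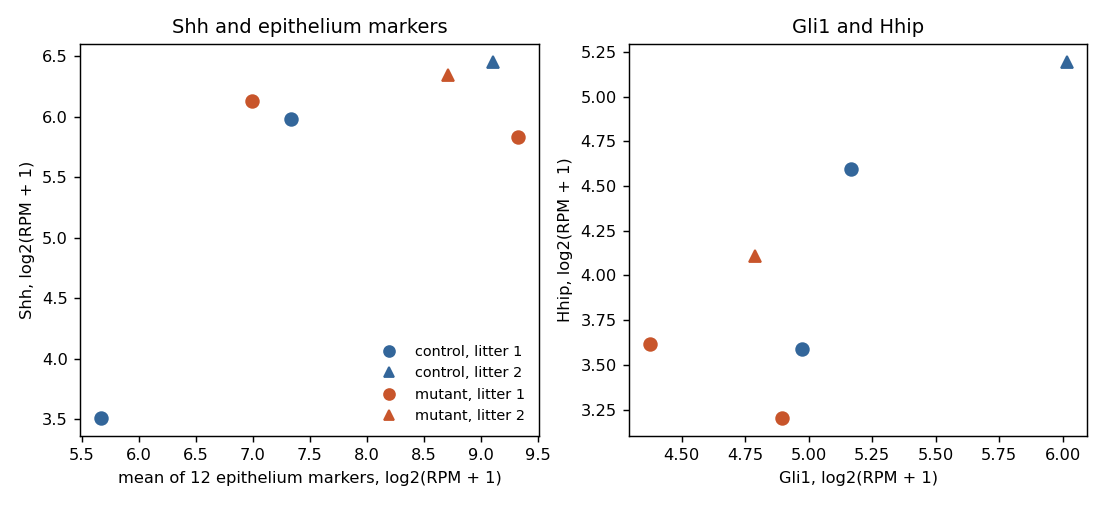
Left, Shh against the mean of 12 dental epithelium markers; right, Hhip against Gli1; each point is a library, both axes in log2(RPM + 1). Control 2 is lowest on both axes at left, and control 3 is highest on both axes at right.

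Patterns over the 6 libraries were compared with those of all other tested genes by Pearson r, as a description in which the best of 14444 genes are picked. The 4 most like Gli1 were St7 (r = 0.99), Lrrtm3 (0.98), Gse1 (0.97) and Dpep1 (0.97). Dpep1, a membrane dipeptidase gene, was highest in control 3 at 27.9 RPM and lowest in mutant 2 at 5.46 RPM, the same libraries as for Gli1. The 5 most like Ptch1 were Aass (1.00), Polr1b, Camsap3, Gm16314 and Dimt1 (each 0.99). Camsap3, a microtubule gene of epithelial cells, was lowest in control 2 at 1.96 RPM, against 3.86 to 10.9 RPM elsewhere. The 5 most like Shh were Mettl21d (0.99), Mus81 (0.98), Ltb, Srcin1 and Mrpl53 (each 0.97), and each of these was lowest in control 2.

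Levels of different genes were compared per kb of annotated exon, using the union of GENCODE M21 exons on GRCm38, the build named mm10 in the submitters' processing notes. In controls Smo was highest at 37.4 ± 1.62 RPM per kb, followed by Shh at 18.6 ± 13.7, Ptch1 at 9.34 ± 3.15, Gli1 at 8.61 ± 3.61, Gli3 at 7.81 ± 0.862, Boc at 5.82 ± 1.39, Sufu at 5.56 ± 0.653, Gli2 at 3.61 ± 0.889 and Hhip at 2.56 ± 1.35. Smo, at 35.5 to 38.4, was above the range of Shh, which at 3.65 to 30.5 overlapped all the others in the order. Ptch1 and Gli1 overlapped each other and also Gli3, Boc and Sufu. Gli3 overlapped Boc but lay above Sufu, Boc overlapped Sufu, and Gli2 overlapped Hhip. Sufu, from 5.08, was above Gli2, to 4.64. The Smo gene spans chr6:29735503-29761365, Gli1 chr10:127329882-127341974, Ptch1 chr13:63508328-63573598, Hhip chr8:79965851-80058006 and Gli3 chr13:15463235-15730026 on that build.

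**Figure D4:**
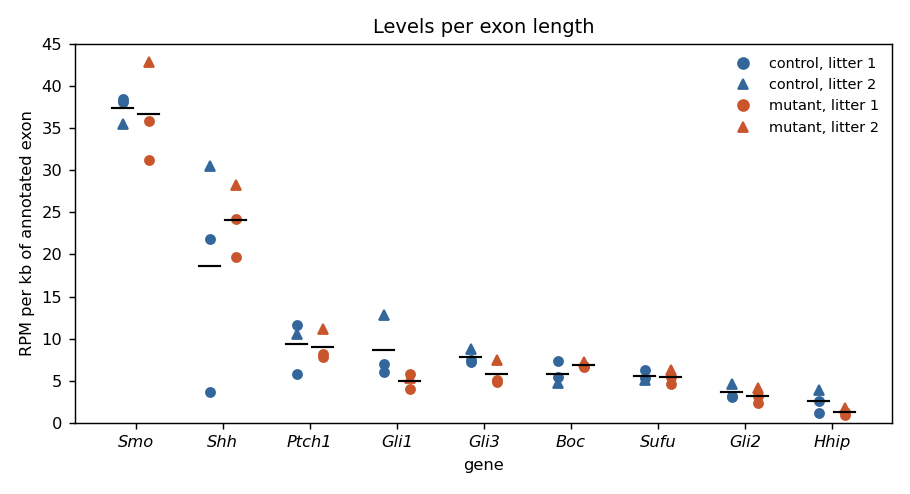
Level of each gene in RPM per kb of annotated exon, ordered by the control mean; points are libraries, circles litter 1 and triangles litter 2, and black lines group means. Smo is highest in each library, and Hhip is the lowest mean in both groups.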

How the data were processed

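RNA from 3 control and 3 mutant samples was sequenced as poly(A) libraries (Illumina), per the labels' protocols. Reads were aligned with TopHat2 to mm10, per the submitters' processing notes; the counting program and annotation are not given in the sources used here. The authors deposited log2 values titled as normalized RPKM. As powers of 2, 100% of the values under 1000 reads were within 0.02 of a whole multiple of 1 step per column, shared by all genes, so length had not been divided out and the values were read as log2 RPM; the denominator is inferred. Column minima, 0.9 of a step, were set to 0 reads. Groups come from the genotype labels, columns from sample titles.

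Genes averaging 1 RPM or more were fitted by limma 3.58.1 under R 4.3.3, as log2(RPM + 1) (eBayes with trend, no covariate, two-sided, Benjamini-Hochberg over all tested genes), tested on simulated data; the fit had been planned for RPKM. Each other list's named genes were those with an unadjusted p under 0.05 and its 2 largest changes (Ihh, Dhh, Evc2, Ccnd1, Ccnd2 and Bcl2 were added after their values were seen), and likeness was read for Gli1, Ptch1 and Shh (up to 5 genes each). A listed gene and a gene found by likeness are not reported here, and counts for lists leave the former out. Members and lists were chosen with earlier results of these data known. Alternatives were pseudocounts, filters, scalings, weights, variance model, litter and replicate block, limma voom on recovered reads, an epithelium covariate and leaving out libraries. Promoter windows are from RefSeq, GRCm38.p6; bases after the start were left out.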

Additional observations from a re-analysis of the deposited data

Results flagged for a closer look

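Smo went opposite ways in the litters: both litter 1 mutants were below both litter 1 controls (change -0.19), and the litter 2 mutant was above its control (0.27). The difference of 0.46 had an adjusted p of 0.91 (0.17 unadjusted; limma with a term for litter by genotype, Benjamini-Hochberg). Every library did so for 18.2% of all tested genes. Of the 9 hedgehog genes, 0 had an unadjusted p under 0.05 for that term, against 5.06% of all tested genes, and litter 2 holds 1 library per genotype.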

How the results depend on the processing

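Gli1, Gli3 and Hhip had negative and Boc positive changes in 21 of 21 alternatives; Gli1 ran from -0.97 to -0.38, Gli3 from -0.64 to -0.33, Hhip from -1.25 to -0.45 and Boc from 0.021 to 0.43. An unadjusted p under 0.05 by limma was reached by Gli1 in 9 of the 21, Gli3 in 6, Hhip in 4 and Boc in 1, and adjusted p-values of the 9 genes were at least 0.896. Hedgehog genes at an unadjusted p under 0.05 numbered 1 in the reported fit. They numbered 0 without a filter, under each of the 3 other scalings, with eBayes without trend and with limma voom, 2 with array weights, and 3 with litter as a block, with the replicate block and with the epithelium covariate; leaving out 1 library gave 0 to 2. Over all genes 152 became 344 without a filter, 309 under array weights, 524 under the replicate block, 292 under the litter block, 500 under the epithelium covariate, 319 for litter 1 only, and 68 to 319 without 1 library. Genes with an adjusted p under 0.05 numbered 0 to 1 without 1 library, the 1 without control 1, and 0 elsewhere. Ptch1, at -0.0050, was at 0.010 under median-of-ratios, 0.021 under quantile and 0.0024 under upper-quartile scaling, 0.010 with voom, and from -0.32 to 0.19 without 1 library. Smo was at 0.020 with quantile scaling and from -0.16 to 0.070 without 1 library. Without 1 library Gli2 ran from -0.36 to 0.021, Sufu from -0.14 to 0.063 and Shh from -0.11 to 1.36. The cause was not tested. The 4 relations kept their sign and failed adjustment under the 4 alternatives run. Same-numbered libraries deviated together at r = -0.03, 0.75 and 0.50 across genes. No such r was computed for differently numbered libraries, so these values cannot show whether the numbers pair them. The reported fit used no pairing. The replicate block gave unadjusted p-values by limma of 0.0123 for Gli1, 0.0151 for Gli3 and 0.0251 for Hhip.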

Other observations

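Ratios between members within a library do not depend on a scaling factor shared by all its genes, though quantile scaling can change them. Of such ratios 6 were computed, chosen after the levels had been seen. Hhip relative to Ptch1 was 0.14, 0.135 and 0.237 in controls 1, 2 and 3 and 0.0711, 0.102 and 0.103 in mutants, without overlap (exact permutation p 0.1, the smallest possible). Gli1 relative to Gli2 was 1.61, 1.46 and 2.00 in controls and 1.33, 1.21 and 0.939 in mutants, also without overlap (exact permutation p 0.1). Gli1 relative to Ptch1 overlapped between groups, at 0.211, 0.372 and 0.424 in controls and 0.249, 0.179 and 0.168 in mutants (exact permutation p 0.2). The other 3 overlapped too: the log2 difference, mutant minus control, was -0.68 for Gli1 to Smo (exact permutation p 0.3), 0.15 for Gli1 to Hhip (0.7) and -0.27 for Gli3 to Gli2 (0.2). Over all 36 pairs of the 9 genes, 7 ratios did not overlap between groups. The pairs share genes, and no such share was computed for pairs of other genes. Whether 7 of 36 is more than elsewhere was therefore not tested. These ratios restate the levels given above and are no separate test of a difference.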
